A study of Mus musculus with 16 samples.

Results

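The comparison described here set epithelium that had lost Rictor against its control in colons without colitis: the 4 cKO libraries against the 4 WT libraries, all from mice on normal water, 8 of the 16 libraries of the study. The members were fixed by group label alone. WT mice had the genotype Villin-Cre; cKO mice carried floxed Rictor together with Villin-Cre, so the recombinase was present in both genotypes. The Villin promoter drives the recombinase in intestinal epithelium. RNA came from colonic epithelial cells, as total RNA of the preparation, and 13255 of 56268 genes were tested. The other 8 libraries, 4 WT_DSS and 4 cKO_DSS, came from the same genotypes given 3% dextran sulfate sodium (DSS), a detergent-like polymer that injures the colonic lining, in drinking water. They share no library with the comparison on water. The labels do not say whether each library came from 1 animal, give no ages, and do not say how pure the epithelium was, so p-values measure the spread between these libraries.

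Rictor is the scaffold subunit that defines mTOR complex 2 (mTORC2), the form of the mTOR kinase that phosphorylates AKT, SGK and PKC kinases downstream of insulin and growth factor receptors. Active AKT restrains FOXO transcription factors and promotes uptake and use of glucose and lipid synthesis. mTOR complex 1 (mTORC1), built around Raptor, senses amino acids and growth factors and drives protein synthesis. Colonic epithelium renews continuously from crypt stem cells, and its absorptive cells, goblet cells and enteroendocrine cells form a barrier to luminal bacteria.

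Library depth on water was 13911823 to 16201539 recovered reads, with 20984 to 22738 genes above 0. Epcam, an epithelial adhesion molecule, stood at 695 to 762 FPKM (fragments per kilobase of gene, scaled to library size) in WT and 639 to 714 in cKO, and the sum of 12 colonic epithelial markers overlapped between genotypes. Of the 12, 1 was higher and 2 lower without overlap, beside 7.85% and 7.65% of all genes. Their log2 fold changes were positive for 4 and negative for 8, with a median of -0.12, and 0.005 after GC correction. The summed level of 20 B and plasma cell genes was 9.29 to 37.9 FPKM in WT and 17.3 to 47.4 in cKO, and 0 of 10 neutrophil genes passed the filter on low values. Reads of Xist, the X-inactivation RNA, were present in all 8 water libraries, and reads of 4 Y-linked genes in all but WT 3, cKO 3 and cKO 4. Xist reads numbered 12362, 10162, 17416 and 10022 in WT 1 to 4 and 21753, 12235, 25600 and 20833 in cKO 1 to 4. The genotypes on water were thus not balanced in these reads. Both kinds of reads were present in WT 1, WT 2, WT 4, cKO 1 and cKO 2, and whether these libraries were pools of both sexes was not tested. Of the 8 DSS libraries, 7 held at most 7 Xist reads, so water and DSS libraries differ in this respect.

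Rictor itself was 3.14, 3.08, 2.80 and 2.17 FPKM in WT 1 to 4 and 2.75, 2.33, 2.57 and 2.22 FPKM in cKO 1 to 4. The genotypes overlapped, with the lowest value in WT 4 (exact two-sided permutation test, p = 0.257; the smallest p that 4 against 4 allows is 0.0286). The log2 fold change was -0.13 (adjusted p = 0.582), -0.26 after GC correction (unadjusted p = 0.00819, adjusted p = 0.212) and -0.40 after DSS (adjusted p = 0.0761). On water it was -0.21 without WT 4 and -0.08 without WT 1. A value per gene also counts transcripts that lack only the floxed exon, so this level does not check the deletion. None of the other mTORC2 subunits separated the genotypes either: Mapkap1, which encodes SIN1, was 18.5 to 20.6 FPKM in WT and 17.0 to 19.9 in cKO, and Prr5 and Prr5l, encoding Protor subunits, overlapped. Of 9 subunit and assembly genes tested, 0 passed the test at an adjusted p under 0.05 and, without GC correction, 0 at an unadjusted p under 0.05 (limma).

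At an adjusted p under 0.05, 12 genes were called, which is 0.0905% of the genes tested, 7 higher (0.0528%) and 5 lower (0.0377%) in cKO. At an unadjusted p under 0.05 there were 2404 genes (18.1%), 1179 higher (8.89%) and 1225 lower (9.24%). Counted whatever their p, and with the 12 called genes among them, 2054 genes (15.5%) did not overlap, 1040 higher (7.85%) and 1014 lower (7.65%). Not overlapping means that every cKO value was above, or every cKO value below, every WT value. These 2054 genes were sharply divided by GC content. In the quintile of genes with the lowest GC, 515 were higher and 20 lower, and in the quintile with the highest GC, 18 were higher and 510 lower. Across genes, Spearman's rho between the log2 fold change and the GC content of the longest transcript was -0.523, and -0.0199 after each library was corrected for GC. Within libraries the rank correlation of expression deviations with GC was 0.19 to 0.498 in WT and -0.226 to 0.0052 in cKO, so the tilt moved with the genotype, and which of both set a given gene's value was not tested.

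After the correction 1251 genes did not overlap (9.72% of 12867 with a known GC content), 604 higher (4.69%) and 647 lower (5.03%), and 12 were called (0.0933%), 8 of them among the 12 called without it. As held were counted 726 genes (5.64%), 326 higher (2.53%) and 400 lower (3.11%), which did not overlap before or after correction, in the same direction, with a corrected unadjusted p under 0.05. Ranked by p, the 20 leading protein-coding genes in each direction kept this status for 16 of those higher and 17 of those lower. The exceptions were Clca4a, Clca3a2, Tbl1xr1 and Tasor among those higher, and Espn, Gadd45g and Gsn among those lower. Of the 12 called genes 10 held. The counts in the gene lists below stand beside shares over all genes. These were 7.85% higher and 7.65% lower without overlap, and 2.53% higher and 3.11% lower that held.

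**Figure D1:**
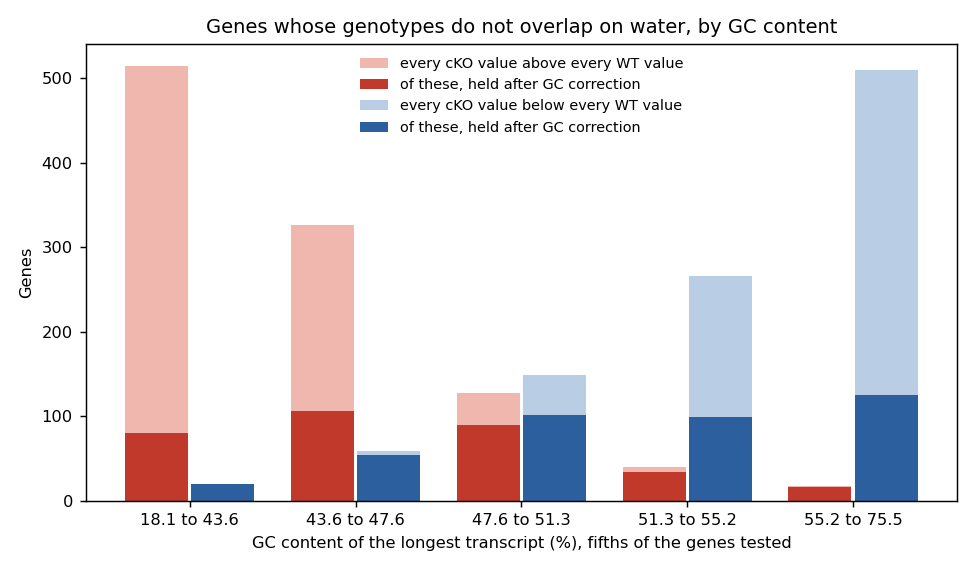
Number of genes whose 4 cKO and 4 WT values on water do not overlap (y axis), in quintiles of the genes tested ordered by GC content of the longest transcript in percent (x axis). Pale bars are all such genes, dark bars those that held after the GC correction; in the lowest quintile 80 of 515 higher genes held, and in the highest 125 of 510 lower genes.

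Ly6g6c had the smallest p of all genes. It encodes a small GPI-anchored protein of the LY6 family and lies at chr17:35065388-35070050 (mm10, plus strand). Its level was 1.86, 1.67, 1.32 and 1.37 FPKM in WT 1 to 4 and 5.17, 5.99, 4.84 and 4.89 FPKM in cKO 1 to 4. All cKO libraries stood well above all WT libraries. After GC correction the log2 fold change was 1.39. In the LY6 and uPAR list, 12 of 25 genes were tested, 1 was called, and 3 did not overlap, all higher and all held: Ly6g6c, Lypd6b and Ly6g6e. The median log2 fold change of the list was 0.34, beside 0.01 over all genes tested.

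Of the 12 called genes, 3 were noncoding or pseudogene entries, and each rose. The long noncoding RNA 3930402G23Rik (chr8:10924427-10928696, minus strand) was 0.886, 0.546, 1.11 and 1.01 FPKM in WT and 3.01, 3.04, 3.87 and 3.40 FPKM in cKO. The processed pseudogene Gm45042 begins just beyond it on the opposite strand (chr8:10929887-10930097) and was 3.17, 1.39, 2.22 and 4.13 FPKM in WT and 9.62, 10.6, 8.71 and 8.86 in cKO. Both entries moved in the same libraries; counting is not stated to use strand, and a pseudogene can take reads of its parent gene. The long noncoding RNA Gm29051 was listed at 0 in WT 1 and WT 4, at 0.635 and 0.363 FPKM in WT 2 and WT 3, and at 1.60, 2.49, 1.79 and 1.17 FPKM in cKO. It was under 1 FPKM in every WT and WT_DSS library, so it was tested only through its level in the groups where it is high, and its adjusted p was 0.093 without the filter.

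Spred1, which encodes a membrane-anchored inhibitor of RAS to MAPK signalling, rose from 5.70, 5.42, 6.04 and 5.13 FPKM in WT to 8.80, 8.36, 9.52 and 8.99 FPKM in cKO. It was the called member among the Sprouty, SPRED and dual-specificity phosphatase genes, many of which MAPK activity induces and whose products damp that pathway. Of 15 members tested, 9 did not overlap, all higher, and 5 held after GC correction: Spred1, Dusp6, Dusp4, Spry4 and Spred2. Over all genes, 7.85% were higher without overlap and 2.53% were higher and held. The median log2 fold change of the list was 0.29, and 0.39 after GC correction, while the median of all genes was 0.01 both times. Dusp6, the ERK-specific phosphatase, was 11.9, 11.7, 11.6 and 21.1 FPKM in WT and 21.5, 21.7, 23.7 and 26.0 FPKM in cKO. WT 4 was far above the other WT libraries and just below the lowest cKO value (limma adjusted p = 0.111). Dusp4, which acts on nuclear MAPK, was 2.54 to 3.91 FPKM in WT and 4.20 to 7.31 FPKM in cKO, again without overlap. Egr1, an immediate early transcription factor driven by the same pathway, was 49.8, 64.5, 63.7 and 60.9 FPKM in WT and 95.4, 126, 77.2 and 86.1 FPKM in cKO, and held. Of 18 immediate early genes tested, 3 did not overlap and were higher and 1 was lower, beside 7.85% and 7.65% of all genes. Of the higher ones 2 held (Egr1 and Ier3).

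Ccnd2, encoding cyclin D2, which couples growth signals to entry into the cell cycle, was 21.6, 19.8, 22.6 and 16.1 FPKM in WT and 37.1, 27.0, 29.3 and 33.6 FPKM in cKO (log2 fold change 0.64 ± 0.12 SE, adjusted p = 0.053). Top2a, the topoisomerase of replicating chromosomes, was 15.4 to 16.7 FPKM in WT and 22.5 to 24.3 FPKM in cKO. The spindle protein gene Nusap1, the cytokinesis scaffold Anln, the chromatin protein gene Nucks1 and the ubiquitin ligase gene G2e3 showed the same separation, with log2 fold changes of 0.43 to 0.58. Of 39 cell cycle and replication genes, 13 did not overlap and were higher and 2 were lower, beside 7.85% and 7.65% of all genes. Of the 13 higher ones 8 held, and 0 were called. The median was 0.24, and 0.20 after GC correction. Mki67, a proliferation marker, was 21.2 to 25.2 FPKM in WT and 29.8 to 33.1 FPKM in cKO. Among those lower were Cdk4 and Ccnd3, and neither held. Of 17 crypt stem cell and Wnt target genes tested, 0 were without overlap, and 0 passed the test.

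The other ranked higher genes belong to several classes. B4galt6, a galactosyltransferase of glycolipid synthesis, was 10.1 to 12.2 FPKM in WT and 13.8 to 16.9 FPKM in cKO. Asap1, a GTPase-activating protein for ARF at membranes and adhesions, was 3.37 to 4.12 FPKM in WT and 5.07 to 5.74 FPKM in cKO. Gpr137b, a lysosomal membrane protein gene, was 3.41 to 4.63 FPKM in WT and 5.57 to 6.73 FPKM in cKO. For these 3 genes the log2 fold change was 0.46 to 0.47 and each held. Gpc3, a cell surface proteoglycan gene, was low, with 0.497, 0.218, 0.249 and 0.199 FPKM in WT and 0.882 to 0.999 in cKO. Cd200r2, of the CD200 receptor family, was 1.72 to 2.18 FPKM in WT and 2.65 to 4.23 in cKO.

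Mt1, the zinc- and copper-binding metallothionein 1, had the largest FPKM difference of the ranked higher genes. It was 78.3, 85.8, 201 and 75.8 FPKM in WT and 249, 270, 378 and 304 FPKM in cKO. WT 3 was far above the other WT libraries and still below every cKO library (adjusted p = 0.0955, and 0.0276 without WT 3). Its neighbour Mt2, regulated alongside Mt1 by metals and glucocorticoids, did not follow: it was 3.53, 1.49, 3.87 and 6.26 FPKM in WT and 1.45, 3.90, 1.13 and 1.71 FPKM in cKO, overlapping; an antisense gene covers Mt2, so its reads may be shared. Slc39a5, a basolateral zinc importer gene, was 36.4, 29.8, 41.6 and 46.9 FPKM in WT and 21.95, 19.6, 19.5 and 24.1 FPKM in cKO, and held. The remaining zinc transporters gave no common direction, and of 19 genes tested in this list, which was drawn up after values had been seen, 2 were higher and 3 lower without overlap.

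The CLCA genes encode secreted regulators of chloride conductance and mucus, and form a cluster of near copies, between which reads may be split. Clca4a was 50.7, 40.02, 73.4 and 46.3 FPKM in WT and 78.3, 105, 115 and 108 FPKM in cKO, and Clca3a2 was 3.66 to 5.19 FPKM in WT and 6.04 to 8.40 FPKM in cKO. Both rose, yet neither held after GC correction, because the corrected values of the genotypes overlapped. Clca3b, at 141 to 245 FPKM in WT and 288 to 351 FPKM in cKO, and Clca4b, at 4.62 to 13.2 FPKM in WT and 14.9 to 22.4 FPKM in cKO, did hold without being called. The goblet cell product Clca1, the most abundant member, ranged from 806 to 3096 FPKM in WT and from 869 to 2020 FPKM in cKO. In all, 4 of 7 members tested were higher without overlap and 0 lower, beside 7.85% and 7.65% of all genes. The 7 had 5 positive and 2 negative log2 fold changes, and 1 was lower at an unadjusted p under 0.05 (limma).

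**Figure D2:**
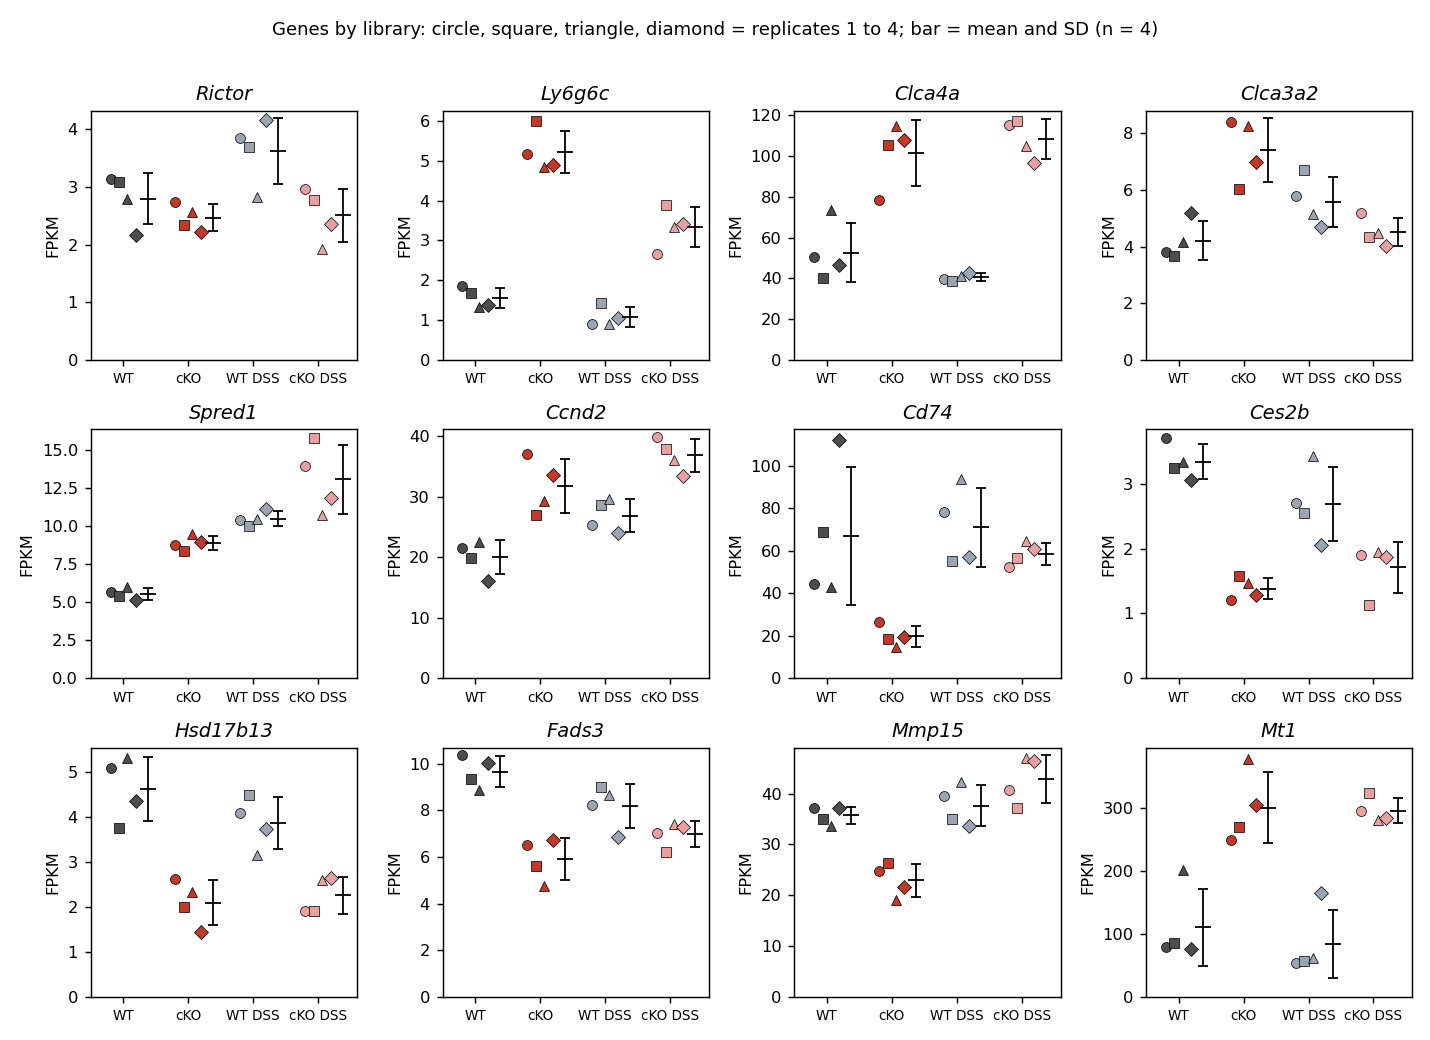
FPKM (y axes, from 0) of 12 genes in WT, cKO, WT DSS and cKO DSS libraries (x axes); symbols mark replicates 1 to 4, and bars give mean and SD of 4 libraries. Rictor overlaps between genotypes on water, while the other 11 genes do not; for Ly6g6c the cKO libraries lie at 4.84 to 5.99 and the WT libraries at 1.32 to 1.86.

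Cma1 encodes a chymase, a protease stored in the granules of mast cells, and was the only gene of a mast cell list in the ranked set. It was 0.491, 1.29, 0.614 and 0.676 FPKM in WT and 3.42, 2.16, 3.03 and 2.71 FPKM in cKO. The mucosal mast cell proteases encoded beside it on chromosome 14 showed the same order. Mcpt1 was 11.9, 5.20, 11.2 and 2.11 FPKM in WT and 15.2, 29.5, 61.8 and 16.7 FPKM in cKO. Mcpt2 was 3.09, 2.04, 4.92 and 1.33 FPKM in WT and 5.80, 16.2, 36.9 and 7.18 FPKM in cKO. Cma2 was 0.426 to 0.746 FPKM in WT and 0.834 to 13.6 FPKM in cKO. All 4 were without overlap and held, none was called (adjusted p = 0.0775 to 0.125), and cKO 3 was highest for Mcpt1, Mcpt2 and Cma2. Without cKO 3 the log2 fold changes were 1.10 for Cma1, 1.47 for Mcpt1, 1.45 for Mcpt2 and 1.13 for Cma2 (adjusted p = 0.18 to 0.269). These genes are near copies, so their reads may be split. A list of 15 mast cell genes, drawn up after these values had been seen, had 5 tested, of which 4 were higher without overlap; its summed level was 9.49 to 26.7 FPKM in WT and 36.5 to 138 in cKO.

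Other mast cell markers were low. Cpa3, a granule carboxypeptidase, was 0 to 0.838 FPKM in WT and 0.569 to 3.59 in cKO, with cKO 3 highest, the receptor subunit gene Fcer1a was 0 to 0.536 in WT and 0.0721 to 1.99 in cKO, and the tryptase gene Tpsab1 was 0 in every library. Kit, which mast cells share with other cells, overlapped. In a bulk sample, more cells of a type and more RNA per cell cannot be told apart. The part of cell composition in these values was not tested.

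The promoters of Cma1 and Mcpt1 are shown because these neighbouring genes moved together and GATA factors are known to drive mast cell protease genes. Each window is the 250 bases before the RefSeq start (GRCm38.p6), read 5′ to 3′ on the gene's strand, at chr14:55944676-55944925 (minus strand) for Cma1 and chr14:56017714-56017963 (plus strand) for Mcpt1. Capitals mark GATAA on either strand, found once in each.
Cma1: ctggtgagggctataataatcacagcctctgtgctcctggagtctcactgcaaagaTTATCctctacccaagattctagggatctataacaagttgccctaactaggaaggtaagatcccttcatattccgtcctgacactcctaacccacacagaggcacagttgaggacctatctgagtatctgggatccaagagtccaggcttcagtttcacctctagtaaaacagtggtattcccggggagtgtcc
Mcpt1: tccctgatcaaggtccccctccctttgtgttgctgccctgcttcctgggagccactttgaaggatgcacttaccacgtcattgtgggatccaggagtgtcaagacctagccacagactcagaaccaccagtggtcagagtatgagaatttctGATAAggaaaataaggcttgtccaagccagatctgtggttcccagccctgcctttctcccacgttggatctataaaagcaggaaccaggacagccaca
The same motif occurs in 22.6% of 32851 such windows, so a match only describes these letters.

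Among the 5 called genes that fell, the log2 fold change was furthest from 0 for Cd74, encoding the chaperone (invariant chain) of class II histocompatibility proteins. Its level was 44.4, 68.9, 42.9 and 112 FPKM in WT and 26.6, 18.4, 14.8 and 19.5 FPKM in cKO. H2-Ab1, the class II beta chain, was 5.21, 5.36, 4.85 and 18.1 FPKM in WT and 2.22, 1.97, 2.40 and 2.10 FPKM in cKO. Both were without overlap and held, and WT 4 was highest for each. Leaving out WT 4, the log2 fold change was -1.35 for Cd74 (adjusted p = 0.0405; 0.0852 without WT 2, and 0.0923, 0.105 and 0.0957 without cKO 2, cKO 3 and cKO 4) and -0.95 for H2-Ab1 (adjusted p = 0.0859). The partner chains did not separate: H2-Aa was 0.722, 1.80, 1.59 and 11.2 FPKM in WT and 0.707 to 1.46 in cKO, and H2-Eb1 was 0.482, 1.69, 2.41 and 13.7 FPKM in WT and 0.775 to 2.49 in cKO. In both, WT 4 stood apart and the other WT libraries lay among the cKO values. Ciita, the class II master regulator, was under the filter at 0.260 to 0.971 FPKM in WT and 0.166 to 0.323 in cKO. All 11 class II genes tested had negative log2 fold changes, with a median of -0.26, though only 2 were without overlap. Without WT 4 the median was -0.19 and H2-Aa went from -0.76 to -0.16. H2-Eb1 went from -0.49 to 0.17, so the sign common to all 11 rested on that library. The median, Cd74 and H2-Ab1 stayed negative without it. Among other antigen-presenting cells, the dendritic cell marker Itgax was 0.307 to 0.451 FPKM in WT and 0.382 to 1.22 in cKO. The summed level of 22 monocyte, macrophage and dendritic cell genes was 38.2 to 51.8 FPKM in WT and 45.2 to 62.9 in cKO, with 0 of 6 tested without overlap and 5 of the 6 with positive log2 fold changes, and that of 22 T cell genes was 39.4 to 46.0 and 25.4 to 57.9, with 2 of 12 tested lower without overlap. The part of these cells in the class II values was not tested. Of 30 type I interferon-induced genes 2 were higher without overlap, which is no larger a share than the 7.85% of all genes, 0 lower and 0 called. Yet 28 of the 30 had positive log2 fold changes. At an unadjusted p under 0.05 (limma) 9 were higher, beside 8.89% of all genes. Their median was 0.37, 0.32 after GC correction, 0.165 without WT 4 and 0.207 without cKO 3. Oas2, a sensor of viral RNA, was 21.1, 20.2, 11.9 and 8.30 FPKM in WT and 21.7, 31.4, 41.0 and 34.5 FPKM in cKO and held, as did Oas1b. The chemokine gene Cxcl10, on the interferon gamma list, was 1.19 to 1.46 FPKM in WT and 1.83 to 5.88 in cKO and held, the 1 of 2 without overlap among 19 tested to do so. At an unadjusted p under 0.05 (limma) 7 of the 19 were higher and 1 lower, beside 8.89% and 9.24% of all genes. The 19 had 14 positive and 5 negative log2 fold changes. Their median was 0.29, 0.23 after GC correction and -0.31 after DSS.

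**Figure D3:**
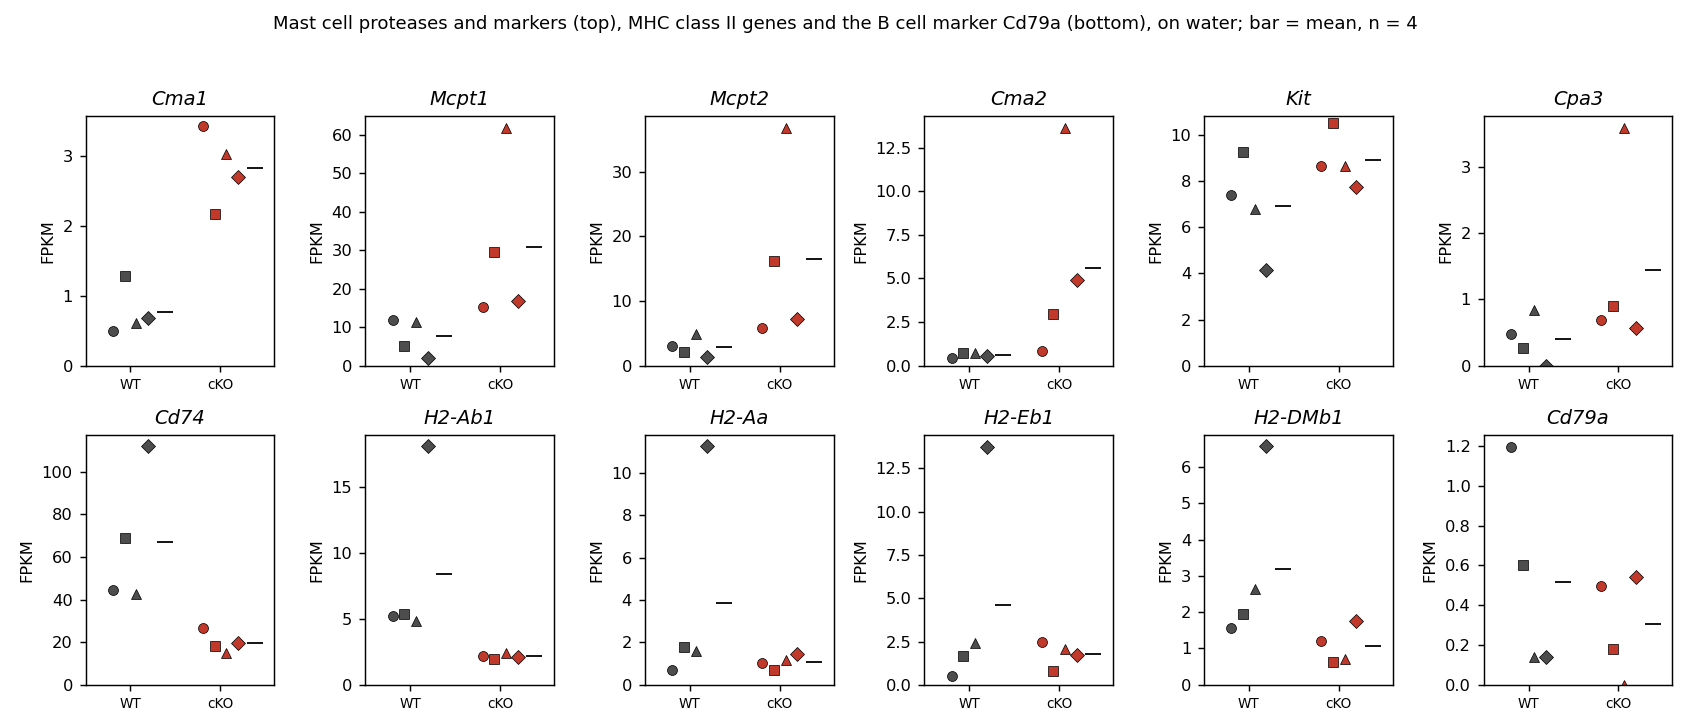
FPKM (y axes, from 0) in the 4 WT and 4 cKO libraries on water (x axes); symbols mark replicates 1 to 4 and the bar the mean. The top row shows mast cell genes, with cKO 3 highest for Mcpt1, Mcpt2, Cma2 and Cpa3; the bottom row shows class II genes, with WT 4 highest in Cd74, H2-Ab1, H2-Aa, H2-Eb1 and H2-DMb1, and the B cell marker Cd79a.

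Ces2b, an intestinal carboxylesterase, was 3.71, 3.25, 3.34 and 3.07 FPKM in WT and 1.21, 1.58, 1.47 and 1.29 FPKM in cKO. Hsd17b13, a lipid droplet protein, was 5.09, 3.75, 5.30 and 4.35 FPKM in WT and 2.61, 2.01, 2.32 and 1.43 FPKM in cKO. Fads3, a fatty acid desaturase acting on sphingoid bases, was 10.4, 9.35, 8.88 and 10.03 FPKM in WT and 6.51, 5.62, 4.75 and 6.73 FPKM in cKO. No cKO library reached the lowest WT library in any of the 3, and each held. Ces1d, another carboxylesterase, was 9.45 to 23.2 FPKM in WT and 7.55 to 8.92 in cKO, and Fads1, the delta-5 desaturase, was 4.27 to 4.88 FPKM in WT and 2.52 to 3.98 in cKO, and both held without being called. Of 11 carboxylesterases 2 and of 17 desaturase and elongase genes 2 were lower without overlap, while 2 of the latter were higher. Of 15 lipid droplet genes tested, Hsd17b13 was the 1 without overlap. Of 24 cholesterol synthesis genes 2 were lower without overlap (median 0.17, and -0.05 without WT 4), and of 25 fatty acid oxidation genes 2 (median -0.12). No gene among these was called, and these shares lie near the 7.65% of all genes.

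Mmp15, a membrane-anchored matrix metalloproteinase, completed the called genes that fell, from 37.1, 34.97, 33.6 and 37.2 FPKM in WT to 24.8, 26.3, 19.1 and 21.6 FPKM in cKO. Galnt12, which starts O-glycan chains on mucins, was 46.8 to 53.3 FPKM in WT and 29.5 to 36.1 FPKM in cKO (adjusted p = 0.053). Orai1, the pore of store-operated calcium entry, was 12.5 to 14.6 FPKM in WT and 7.76 to 9.78 FPKM in cKO. Evpl, encoding envoplakin of the cell cortex, was 15.7 to 18.2 FPKM in WT and 8.14 to 10.8 FPKM in cKO. Saa1, a secreted acute phase protein made by colonocytes, was 105, 93.8, 111 and 149 FPKM in WT and 56.8, 74.8, 65.5 and 62.6 FPKM in cKO. No cKO library reached the lowest WT library for any of these 4 genes, and all held; Saa1 has a near copy, with which it may share reads. The cell cycle inhibitor gene Cdkn2b, at 40.3 to 50.5 FPKM in WT and 26.2 to 34.2 FPKM in cKO, the scaffold gene Slc9a3r2 and the sugar transporter gene Slc5a9 held as well. Espn and Gsn, which encode actin-bundling and actin-severing proteins, and Gadd45g, a stress-induced gene, were lower without overlap but did not hold. Chga, the granule protein of enteroendocrine cells, was 9.05 to 14.4 FPKM in WT and 4.07 to 6.72 FPKM in cKO and held, the 1 of 14 enteroendocrine genes tested to do so. The list median was -0.20 with and without GC correction, and -0.11 without WT 3, with 5 positive and 9 negative log2 fold changes. At an unadjusted p under 0.05 (limma) 5 of the 14 were lower, beside 9.24% of all genes.

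Ak4, a mitochondrial matrix adenylate kinase, was 1.74, 3.73, 4.72 and 2.58 FPKM in WT and 0.240, 0.846, 1.01 and 1.24 FPKM in cKO (log2 fold change -1.17 ± 0.22 SE, adjusted p = 0.0558). Outside WT it reached 1 FPKM only in cKO 3, cKO 4 and WT_DSS 4, so it passed the filter only through the group where it is high. Uqcrb, a subunit of respiratory complex III, was 147, 117, 128 and 125 FPKM in WT and 89.5, 94.3, 79.4 and 80.7 FPKM in cKO. Of 38 nuclear-encoded respiratory chain genes tested, 10 were lower without overlap, 0 higher, and 7 of the 10 held, with a median of -0.21. Over all genes, 7.65% were lower without overlap and 3.11% were lower and held. The 15 mitochondrial genome transcripts had a median of 0.27, which was 0.10 after GC correction, 0.14 after quantile normalization, 0.09 without cKO 3, 0.17 without WT 2 and 0.45 without cKO 1. The share of reads from that genome was 7.66% to 11.3% in WT and 7.67% to 15.1% in cKO. Of 25 glycolysis and hypoxia genes, 12 were lower without overlap, 0 higher, and 8 of the 12 held. Among them Egln3, an oxygen-sensing prolyl hydroxylase, was 22.6 to 31.1 FPKM in WT and 13.9 to 21.3 FPKM in cKO, Pfkl, the liver-type phosphofructokinase, was 29.5 to 37.7 and 19.4 to 22.1 FPKM, and Pgk1, a kinase of the ATP-yielding phase, was 125 to 145 and 94.8 to 113 FPKM. The hexokinase gene Hk2 was lower without overlap and did not hold. No member of either list was called, and the glycolysis median was -0.25, or -0.19 after GC correction.

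Genes upstream and downstream of mTORC2 changed in both directions, and the lists differed in which direction was more frequent. Foxo6, a FOXO transcription factor restrained by AKT, was 1.61, 2.13, 2.25 and 2.54 FPKM in WT and 0.876, 0.827, 0.506 and 0.523 FPKM in cKO. Pik3ca, the catalytic subunit of PI3-kinase, was 5.38 to 6.74 FPKM in WT and 7.69 to 8.87 FPKM in cKO, and Insr, the insulin receptor, was 7.61 to 9.59 and 10.1 to 12.1 FPKM. All 3 held, as did Igf1r. Of 22 genes from the insulin receptor to FOXO, 5 were higher and 2 lower without overlap, beside 7.85% and 7.65% of all genes. At an unadjusted p under 0.05 (limma) 8 were higher and 1 lower, beside 8.89% and 9.24% of all genes. The median of this list was 0.13. Among AGC kinases, Akt1, a main substrate of mTORC2, was 39.4 to 51.1 FPKM in WT and 32.5 to 35.4 FPKM in cKO. It held, and 4 of 16 AGC kinases were higher and 3 lower without overlap. In the mTORC1 list, 4 of 18 genes were lower without overlap and all 4 held: Ddit4, an inhibitor of mTORC1 induced by stress, at 21.7 to 27.1 FPKM in WT and 12.6 to 17.8 FPKM in cKO, the lysosomal Ragulator subunits Lamtor2 and Lamtor4, and Akt1s1, an AKT substrate within mTORC1. None was called.

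**Figure D4:**
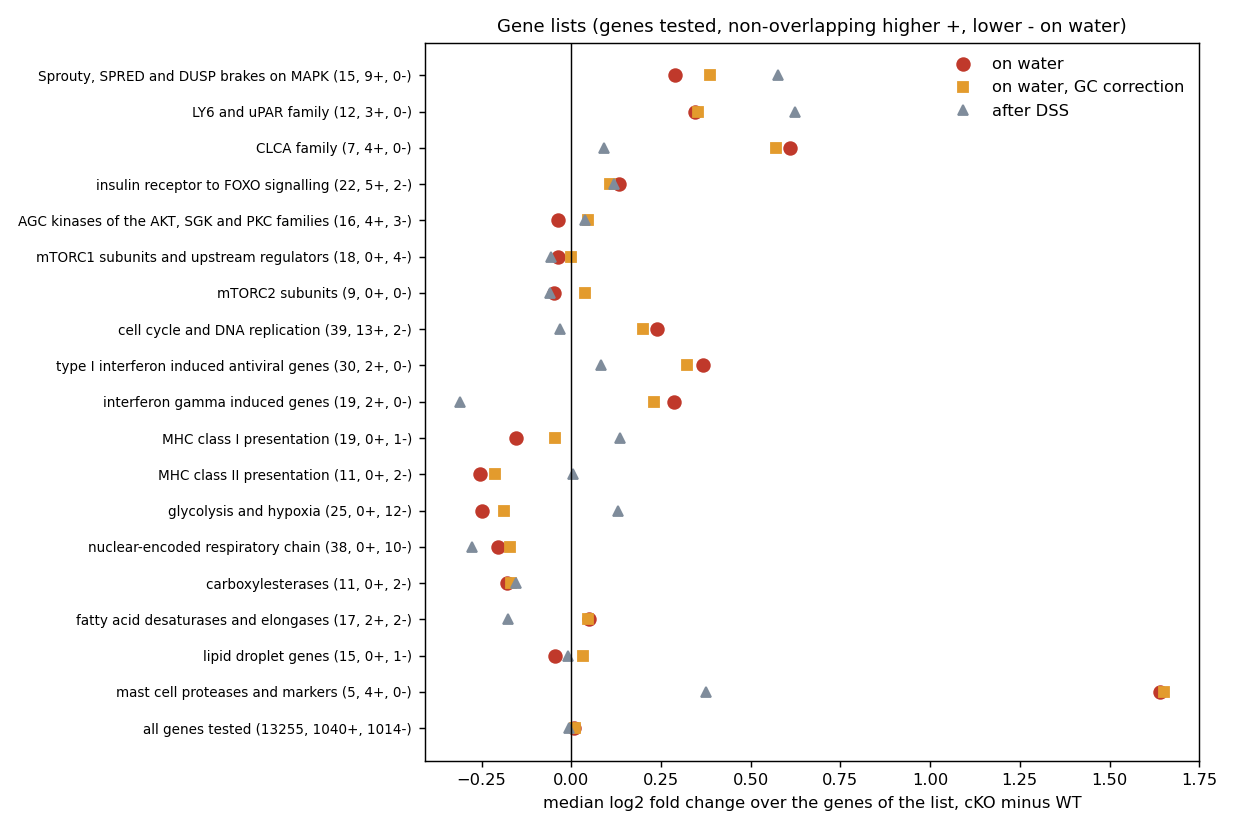
Median log2 fold change, cKO minus WT, over the tested genes of each list (x axis), on water, on water after GC correction, and after DSS; labels give the genes tested and those higher (+) or lower (-) without overlap on water. The MAPK brakes have 9 higher and 0 lower, glycolysis 0 and 12, and the medians of the mTORC2, AGC kinase and lipid droplet lists change sign with the GC correction.

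The DSS libraries had no part in the ranking of the genes beyond the filter and the shared estimate of spread. There the tilt with GC ran otherwise, with rank correlations of -0.483 to 0.0178 in WT_DSS and -0.375 to 0.399 in cKO_DSS. Of the 40 ranked genes, 25 kept their direction after DSS (62.5%, beside 42.1% of all genes tested), and 14 were again without overlap in that direction (35%). Of the 2054 genes without overlap on water these shares were 36.3% and 5.65%, and of the 726 that held 47.5% and 11.7%. At an adjusted p under 0.05, 10 of the 40 were called in the same direction after DSS and 0 in the opposite one, where 491 of all genes (3.7%) were called in either direction and 10% did not overlap. Among those higher on water the 8 called were Ly6g6c, Clca4a, Ccnd2, B4galt6, Asap1, Mt1, Cd200r2 and Dusp6, and among those lower the 2 were Hsd17b13 and Saa1. Mt1 stood at 54.2, 56.3, 62.0 and 165 FPKM in WT_DSS and 294, 324, 280 and 284 FPKM in cKO_DSS. Dusp6 was higher in both genotypes than on water, at 32.7 to 46.3 FPKM in WT_DSS and 60.0 to 74.4 FPKM in cKO_DSS, and 7 of 15 MAPK brakes were called higher. Saa1 was 54.4 to 73.4 FPKM in WT_DSS and 26.4 to 43.8 FPKM in cKO_DSS.

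Among the cell cycle genes, Top2a was 17.8 to 21.1 FPKM in WT_DSS and 13.5 to 22.2 FPKM in cKO_DSS, and the list median was -0.03. For 4 ranked genes the genotype effect differed between DSS and water by the interaction test (limma adjusted p = 0.0401 to 0.0431; 20 of all genes, 0.151%, passed): Clca3a2, Tbl1xr1, Nusap1 and Nucks1, each higher in cKO on water and with a log2 fold change of -0.36 to -0.20 after DSS. These genes were ranked by the effect on water, which enters this test, so their number is a description. Water and DSS libraries also differed in Xist reads, and the part of this in the interaction was not tested. Cma1 overlapped after DSS, with a log2 fold change of 0.16, and so did Cd74, at 55.1 to 93.9 FPKM in WT_DSS and 52.3 to 64.5 FPKM in cKO_DSS, although neither interaction passed (adjusted p = 0.127 and 0.0907). The glycolysis median was 0.13 after DSS, and the respiratory chain median -0.28. Of the 38 respiratory chain genes, 17 were lower without overlap after DSS and 9 were called lower. Over all genes, 10% did not overlap and 3.7% were called, in either direction.

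**Figure D5:**
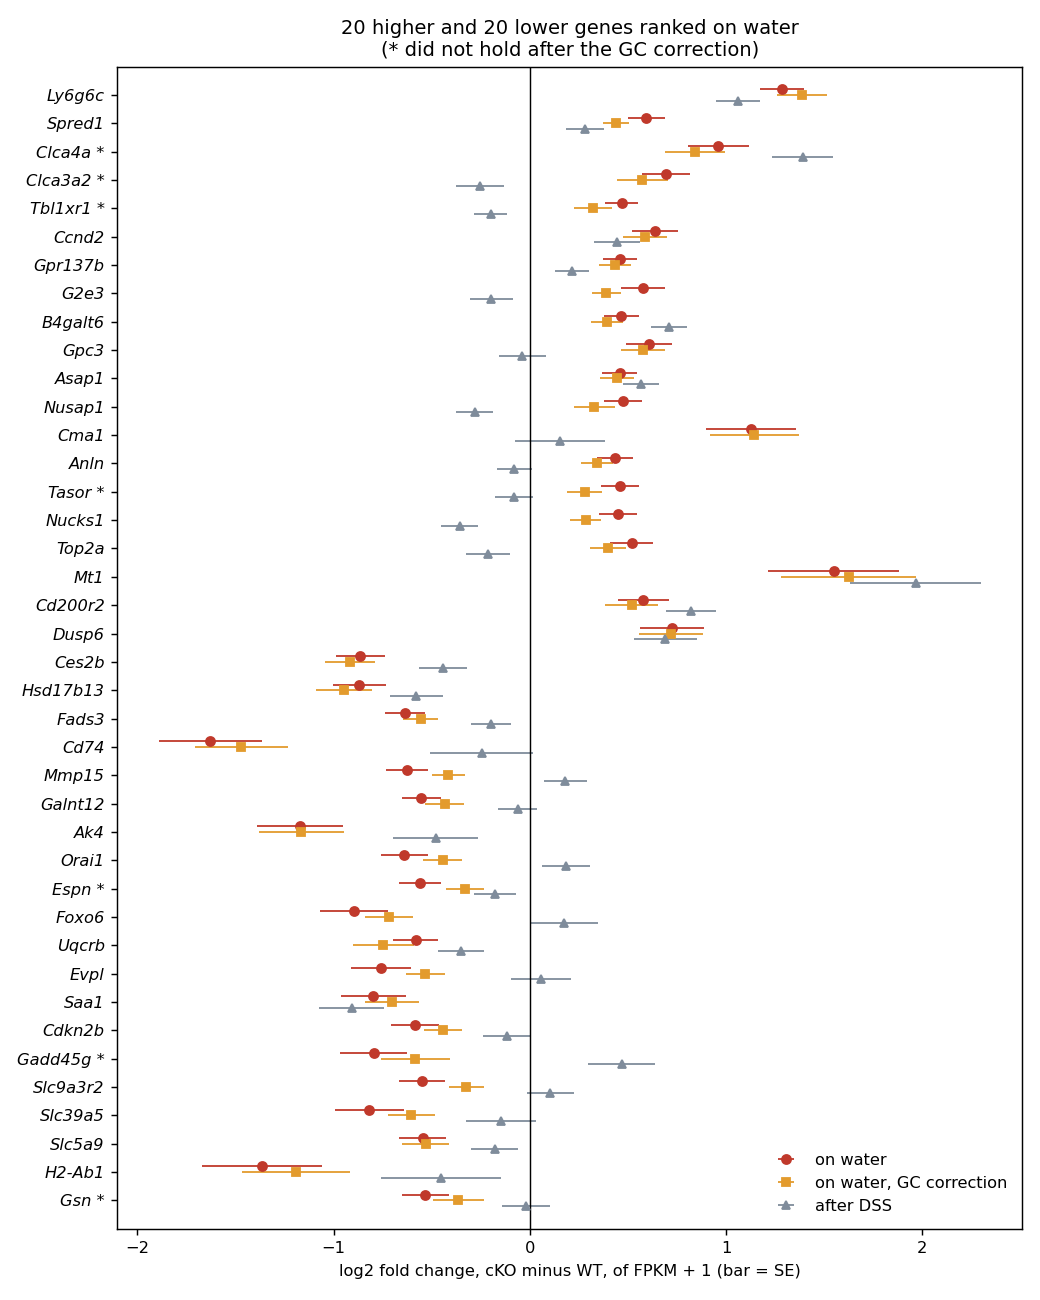
Log2 fold change, cKO minus WT, of FPKM + 1 with SE (x axis) for the 20 higher and 20 lower genes ranked on water (y axis, by p), on water, on water after GC correction, and after DSS; an asterisk marks the 7 genes that did not hold. Ly6g6c, Mt1, Clca4a and Saa1 keep their direction after DSS, while Top2a, Nusap1 and Nucks1 change sign.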

How the data were processed

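Total RNA of colonic epithelial cells was sequenced in 16 libraries, 4 in each of 4 groups. The deposited values are FPKM per gene, made by the authors with featureCounts 1.5.0-p3, DESeq2 1.20.0 and build mm10, per the submitters' processing notes; per the labels' protocols, adapter-containing, ambiguous and low-quality reads had been discarded. Aligner, annotation release and strand setting: not given in the sources used here. FPKM times gene length gave whole reads for 100% of values above 0 (tolerance 0.05).

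Genes reaching 1 FPKM in 4 or more of 16 libraries were tested as log2(FPKM + 1), which understates changes of low genes, with limma 3.58.1 in R 4.3.3: 1 mean per group, intensity trend, two-sided, Benjamini-Hochberg adjustment over 13255 genes. Each library was GC-corrected with a loess (span 0.5) on GC content of the longest GENCODE M21 transcript. Scripts were tested on simulated data. Named were the mTORC2 subunits, the called genes, the 20 higher and 20 lower protein-coding genes without overlap and with the smallest p (no predicted genes), and in each list described the members with the smallest p; further members were named after their values were seen. The members and the 45 gene lists were chosen with earlier results of these data known; 3 more lists were added after values were seen. Promoters of 28 of 43 ranked or called genes were in the RefSeq table. Alternatives are given at the end. No adjustment over a list alone and no set test was made. Some results are not reported here.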

Additional observations from a re-analysis of the deposited data

Results flagged for a closer look

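Within groups of 4 libraries, some values lay far from the other 3 (Dixon's test, which chance passes in about 1 of 20 groups; all 52 named genes were examined in both genotypes on water). In WT 4, Dusp6 was 21.06 FPKM beside 11.6 to 11.9 in the other WT libraries, and H2-Ab1 was 18.15 beside 4.85 to 5.36. In WT 3, Mt1 was 201.1 FPKM beside 75.8 to 85.8, and Slc5a9 was 5.834 beside 3.67 to 3.97. In WT 1, Gpc3 was 0.4973 FPKM beside 0.199 to 0.249, and Mapkap1 was 20.65 beside 18.5 to 18.7. In WT 2, Espn was 9.574 FPKM beside 11.9 to 12.3. In cKO 4, G2e3 was 4.906 FPKM beside 4.21 to 4.28.

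The genotype effect after DSS minus that on water, on the log2 scale, passed limma's interaction test for 4 ranked genes. It was -0.9449 for Clca3a2, the chloride channel regulator family member, -0.667 for Tbl1xr1, a corepressor subunit, -0.7562 for Nusap1, a spindle protein, and -0.8072 for Nucks1, a chromatin protein. The ranking used the effect on water, which enters this difference, and water and DSS libraries also differed in Xist reads.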

How the results depend on the processing

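The 12 called genes became 2 without a filter on low values, 20 with quantile normalization, 20 with each library shifted to a common median, 6 with the 8 water libraries alone, 23 with voom on recovered reads, 267 with sample quality weights, and 1 without the 3 water libraries that hold no Y-linked reads. With a replicate block the count was 2, and with block and GC correction together 13. Replicate numbers are only labels here: same-numbered WT and cKO libraries correlated by 0.0423, 0.121, 0.0173 and 0.0435, and not every library correlated best with its own number. Leaving out 1 library at a time gave 2 to 111 calls, the 2 without cKO 3 or cKO 4 and the 111 without cKO_DSS 2; without WT 1, WT 2, cKO 2, WT_DSS 1, cKO_DSS 3 and cKO_DSS 4 there were 4, 6, 4, 3, 5 and 3. Genes without overlap went from 2054 to 1251 with GC correction, 1257 with GC and length correction, 4185 without the 3 libraries (fewer libraries make overlap rarer), and to 2482 to 3119 when 1 water library was left out.

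Ly6g6c was called in 30 of 30 alternatives and 3930402G23Rik in 29 of 30; Ces2b in 24 of 30, Spred1 and Cd74 in 19 of 31, Fads3 in 18 of 31, Hsd17b13 in 18 of 30, Clca4a in 17 of 31, Mmp15 in 11 of 31, Clca3a2 and Gm45042 in 10 of 31 and Gm29051 in 8 of 30. No ranked or called gene changed sign (0). For many alternatives this was fixed in advance, since none of these genes overlapped between genotypes on water. Leaving out a library cannot turn the sign of such a gene, so the 0 is a description. The mTORC2 genes were not chosen in this way. When 1 library was left out, log2 fold changes ran from -0.06704 to 0.1875 for Mlst8, -0.0523 to 0.0559 for Mtor and -0.08877 to 0.02562 for Telo2. Near 0 on the log2 scale, Mlst8 turned to -0.06704 without WT 1, Mtor to -0.07105 with length correction, -0.002337 with voom, -0.01039 with quality weights, and -0.0523 and -0.01632 without WT 4 and cKO 1, and Telo2 to 0.03721 with GC correction (with or without the block), 0.002451 with GC and length correction, 0.02562 without cKO 4 and 0.07451 without the 3 libraries; the cause was not tested. Genes near 1 FPKM rest on few reads.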

Other observations

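Tight junction genes showed differences in both directions on water. Cldn4, a claudin of barrier-forming epithelium, was 14.1 ± 2.27 FPKM in WT and 22.1 ± 5.30 in cKO, and Tjp1, the scaffold ZO-1, was 20.2 ± 2.41 and 26.2 ± 0.433 (SD, n = 4). Cldn15, which forms cation pores, was 92.7 ± 7.47 FPKM in WT and 64.5 ± 4.55 in cKO. Of 19 genes tested, 3 were higher and 3 lower without overlap, beside 7.85% and 7.65% of all genes. After GC correction 3 and 1 of these held, and none was called. Among 39 cytochrome P450 and phase II genes tested, Cyp2f2 was 6.21 ± 1.16 FPKM in WT and 3.03 ± 1.10 in cKO, and Cyp2c68 was 27.8 ± 1.35 and 17.0 ± 4.12 (SD, n = 4). In that list 3 genes were higher and 4 lower without overlap, near the shares of all genes, 17 had positive and 22 negative log2 fold changes, and the median was -0.04. Cyp2f2 and Cyp2c68 were lower without overlap and held, and their log2 fold changes after DSS were -1.01 and -1.79. P450 genes have near copies, between which reads may be split.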
